A study of Mus musculus with 6 samples.

Results

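The genes described here are cell division genes: 45 listed mouse genes for DNA replication, nucleotide supply, cyclins, mitotic kinases, the spindle and the chromosomes, followed over 3 populations of spleen cells. The listed symbols were looked up in the authors' table of array values, and the probe with the highest mean over the 6 arrays stood for each gene. A named probe was found for 43 of the 45 genes, of 19057 genes in the table, while Ccnb1 and Mki67 were not analysed here. Macrophages and 2 kinds of conventional dendritic cell (cDC), marked CD8+ and CD8-, came from the spleen of C57/B6 mice, and each population was measured on 2 Illumina bead arrays numbered 1 and 2. No treatment, genotype, age or sex is given in the labels, and the sources used here do not say how the cells were isolated. Whether the arrays of a population came from separate animals is not in the labels either, so p-values reflect the spread between these samples alone, which may be technical. In RNA from many cells, fewer dividing cells and less RNA per dividing cell cannot be told apart.

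A dividing cell first loads the MCM helicase onto its replication origins, fires them in S phase with a supply of deoxynucleotides, and then drives mitosis through Cdk1 with cyclins A and B, the Aurora and Polo kinases and the spindle motors. E2F factors switch on many replication genes, and FoxM1 and the MuvB complexes switch on many mitotic genes, so that both sets peak at their own time of the cycle. In the spleen, cDC arise from bone marrow precursors and divide to some extent in place, whereas red pulp macrophages are mostly maintained locally.

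The populations were first set against marker lists, chosen with earlier results of these data known, so this is no independent check. Of 14 macrophage markers, 13 were called higher in macrophages than in cDC, against 8.22% of all genes. Of 12 cDC markers, 11 were called lower, against 7.21% of all genes. Called means an adjusted p under 0.05. With the replicate number as a block in the fit, 10 of the 14 macrophage markers and again 11 of the 12 cDC markers were called, and C1qa, Vcam1 and C1qc were then at adjusted p = 0.0521, 0.0599 and 0.0691. The probe for Cd8a, the antigen that names the CD8+ cDC, was at 5.67 and 4.96 log2 there, near the background level of 5.25. For 8 of 9 CD8+ cDC markers both CD8+ arrays lay above both CD8- arrays, against 21.1% of all genes. Of the 9, 3 were called higher, and 5 with the replicate block, while Batf3 overlapped (difference -0.03). For 6 of 8 CD8- cDC markers both CD8+ arrays lay below both CD8- arrays, against 21.4% of all genes. Of these 8, 4 were called lower, and 3 with the block, while Mgl2 (0.68) and Clec10a (0.47) overlapped and ran higher in CD8+ cDC. Each array had between 15802 and 15827 probes above background, and replicate arrays correlated at 0.966 to 0.975 (Pearson, over the 12471 probes above background on all 6 arrays). All levels below are log2 signals of the deposited table, and a difference of 1 is a 2-fold ratio.

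Promoters of 4 members are shown because these genes had the largest differences between macrophages and cDC: Tyms and Mcm5 among the replication and nucleotide genes, and Birc5 and Cdca8 among the cyclin, kinase and spindle genes. The sequences are RefSeq's on GRCm38.p6, from 250 bases before to 50 bases after the annotated start, on the strand of the gene. They lie at chr5:30073576-30073875 on the minus strand for Tyms, chr8:75109259-75109558 on the plus strand for Mcm5, chr11:117848987-117849286 on the plus strand for Birc5 and chr4:124936868-124937167 on the minus strand for Cdca8. Capitals mark the letters searched for, on either strand: CCAAT, the letters read by the factor NF-Y, TTTGAA or TTTAAA, the letters of the cell cycle homology region read by MuvB complexes, and the E2F-type letters TTTCCCGC, TTTGGCGC, TTTCGCGC and TTCCCGCC.
Tyms: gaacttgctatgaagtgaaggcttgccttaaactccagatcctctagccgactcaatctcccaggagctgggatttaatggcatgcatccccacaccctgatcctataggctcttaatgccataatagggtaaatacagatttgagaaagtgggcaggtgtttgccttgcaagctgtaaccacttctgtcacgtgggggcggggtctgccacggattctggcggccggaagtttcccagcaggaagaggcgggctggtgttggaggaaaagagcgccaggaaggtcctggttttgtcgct
Mcm5: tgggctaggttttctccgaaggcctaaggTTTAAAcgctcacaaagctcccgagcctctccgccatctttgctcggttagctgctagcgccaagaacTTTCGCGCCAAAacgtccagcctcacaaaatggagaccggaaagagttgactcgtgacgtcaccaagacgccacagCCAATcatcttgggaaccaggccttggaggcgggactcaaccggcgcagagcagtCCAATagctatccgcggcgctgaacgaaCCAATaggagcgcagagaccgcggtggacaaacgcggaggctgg
Birc5: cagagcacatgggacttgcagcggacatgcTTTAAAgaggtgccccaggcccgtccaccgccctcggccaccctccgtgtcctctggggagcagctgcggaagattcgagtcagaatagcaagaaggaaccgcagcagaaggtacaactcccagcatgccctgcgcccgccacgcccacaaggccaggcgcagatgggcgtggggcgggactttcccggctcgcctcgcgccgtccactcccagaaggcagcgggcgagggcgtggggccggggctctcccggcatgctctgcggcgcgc
Cdca8: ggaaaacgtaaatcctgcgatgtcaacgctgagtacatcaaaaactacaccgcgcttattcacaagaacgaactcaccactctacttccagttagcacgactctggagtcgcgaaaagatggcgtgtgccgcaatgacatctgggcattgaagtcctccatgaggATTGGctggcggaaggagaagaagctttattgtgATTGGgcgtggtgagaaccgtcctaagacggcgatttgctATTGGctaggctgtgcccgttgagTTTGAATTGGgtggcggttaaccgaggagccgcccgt
The Tyms window held none of these letters. In Mcm5 the capitals TTTCGCGCCAAA hold a pair of E2F-type matches that overlap, 1 on each strand, and CCAAT stands at positions -77, -22 and 7 from the start. Birc5 held TTTAAA at position -220. Cdca8 held CCAAT on the opposite strand 4 times, written ATTGG, and its TTTGAA at position 14 overlaps the last of them.

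Of the 45 members, 37 had a promoter in the RefSeq table. CCAAT was in 28 of the 37 (75.7%), against 37.9% of all 27025 promoters of the same length. TTTGAA or TTTAAA was in 26 (70.3%), against 27.8% of all promoters, and it stood in 21 of the 25 promoters of cyclin, kinase and spindle genes (84.0%) but in 5 of the 12 of replication and nucleotide genes (41.7%). The E2F-type letters ran the other way: they were in 6 of the 12 replication and nucleotide promoters and in 2 of the 25 others (8.0%), against 3.6% of all promoters. A match describes these letters only and is neither a site nor a cause.

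Across the 43 measured genes, macrophages gave the lowest levels, CD8+ cDC higher ones and CD8- cDC the highest in 35 genes by the order of the group means, of which 33 were above background on at least 1 array. Between macrophages and the mean of both cDC groups, 15 of the 43 members (34.9%) were called lower in macrophages and 0 higher, against 7.21% lower and 8.22% higher among all 19057 genes (limma, Benjamini-Hochberg over all 45281 probes). Among the 9664 genes above background on at least 2 arrays, the shares were 14.1% lower and 15.7% higher. At an unadjusted p under 0.05, 33 members were lower and 0 higher, against 2713 and 2767 of all 19057 genes. Among the 9664 genes above background on at least 2 arrays, 2550 were lower and 2434 higher at that threshold. Both macrophage arrays lay below all 4 cDC arrays for 35 members (81.4%), against 16.2% of all genes and 25.3% of genes above background on at least 2 arrays. The 35 include Chek1, which was at background on all 6 arrays. Both macrophage arrays lay above the cDC arrays for 1 (16.8% of all genes), Ccnb2, whose values were all at background. The median difference of the members was -1.21, that of all genes 0.00. With the replicate number as a block, 24 members were called lower, against 1502 of all 19057 genes, and 13 of the 15 were among the 24. Mcm3 and Ccne2 were then at adjusted p = 0.053 and 0.0504.

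Leaving out 1 array leaves its population with 1 array and lowers the residual degrees of freedom. That effect and the effect of the array itself were not told apart in the count of members called lower. Without macrophage replicate 1 it was 21, of which 11 were among the 15, and without macrophage replicate 2 it was 6, of which 4 were. Leaving out CD8+ replicate 1 or 2 gave 5 and 4, and leaving out CD8- replicate 1 or 2 gave 6 each. The share of all genes called in these fits is not given here, so these counts do not set the members apart from all genes. The members' median was -1.66 without macrophage replicate 1 and -0.92 without macrophage replicate 2. Mcm5 was called under each of 14 alternative settings, and Cdc45 and Kif23 under 13 of 14.

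**Figure D1:**
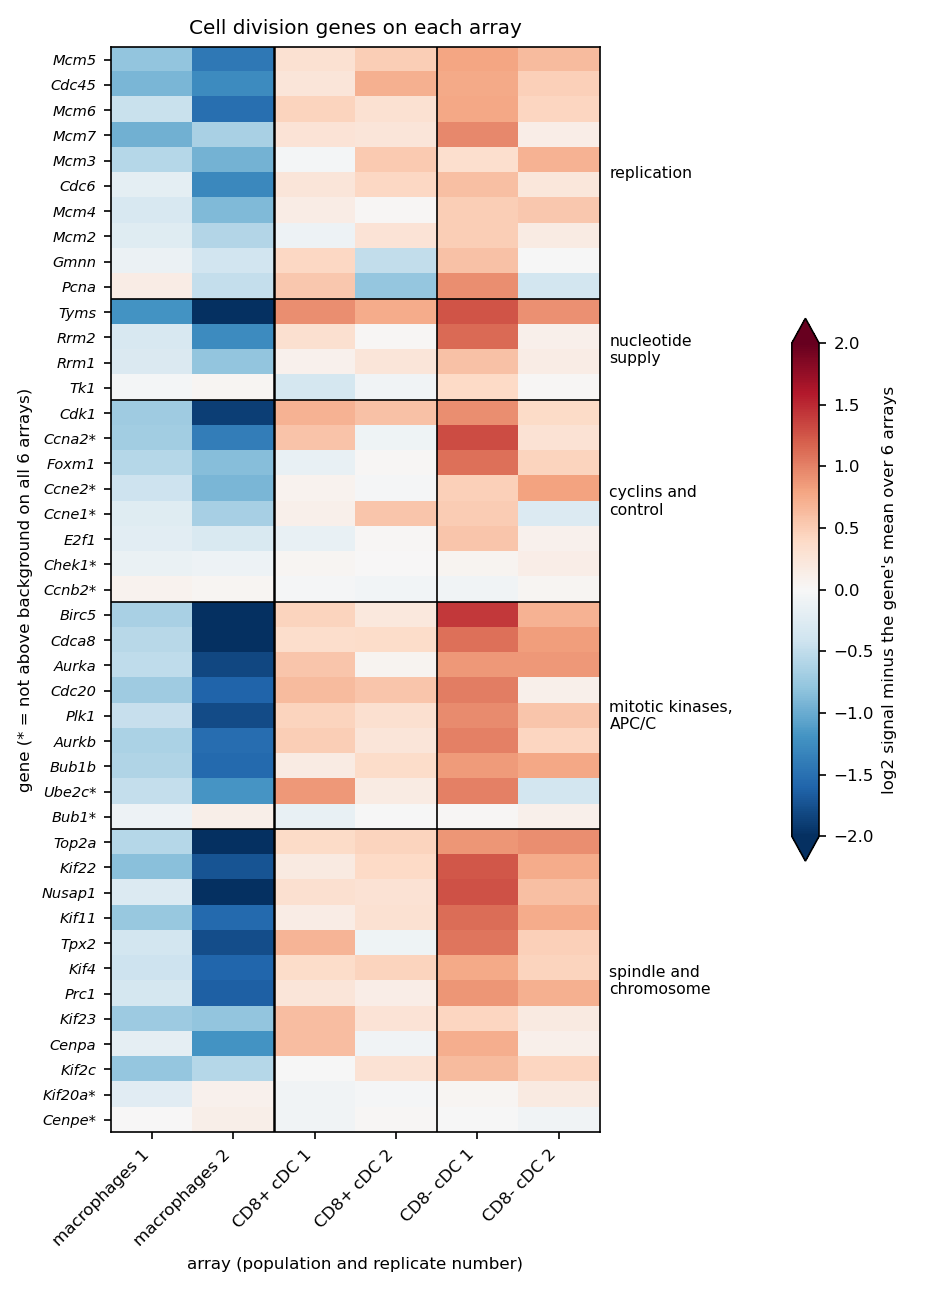
Heat map of the 43 measured cell division genes (rows, grouped by role) on the 6 arrays (columns: macrophages, CD8+ cDC and CD8- cDC, replicates 1 and 2), coloured by the log2 signal minus the gene's mean over the 6 arrays. Macrophage replicate 2 was the lowest of the 6 arrays for 33 genes and CD8- cDC replicate 1 the highest for 31, and genes with an asterisk were not above background on every array.

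The replication genes load and unwind origins and run the fork. Of the 10, 4 were called lower in macrophages (Mcm3, Mcm4, Mcm5 and Cdc45), with a median difference of -1.13. Among all genes 7.21% were called lower, and 14.1% of genes above background on at least 2 arrays. These shares are the ones to set beside each role group below. Mcm5, a subunit of the helicase ring, had 9.88 and 9.23 in macrophages, against 10.97 and 11.15 in CD8+ cDC and 11.46 and 11.30 in CD8- cDC. The macrophage arrays lay below all others, 3.17-fold lower in the mean (log2 difference -1.67, SE 0.20, limma adjusted p = 0.0111).
Cdc45, which joins that ring to make the moving helicase, had 5.63 and 5.28 in macrophages, against 6.78 and 7.26 in CD8+ cDC and 7.30 and 7.01 in CD8- cDC. It was 3.10-fold lower in macrophages (-1.63, SE 0.19, adjusted p = 0.0105), where replicate 2 stood just above background. Of the other ring subunits, Mcm3 (-1.14, adjusted p = 0.0408) and Mcm4 (-0.90, adjusted p = 0.0398) were called, while Mcm6 (-1.46, adjusted p = 0.0557), Mcm7 (-1.21, adjusted p = 0.0501) and Mcm2 (-0.62, adjusted p = 0.114) were not, although the macrophage arrays lay below the cDC arrays for all of them. Other probes of these genes were called: all 3 further Mcm6 probes (-1.28, -1.18 and -1.41, adjusted p = 0.0165, 0.0104 and 0.0194) and the further Mcm7 probe (-2.16, adjusted p = 0.00195). The Mcm7 probe and the Mcm6 probe at -1.18 were at background in macrophages. The Mcm6 probe used here had 10.10 and 9.03 in macrophages, against 10.98 and 10.84 in CD8+ cDC and 11.30 and 10.96 in CD8- cDC, so that its macrophage arrays were further apart than its cDC arrays. With the replicate block this probe was at adjusted p = 0.0286.
Cdc6, which recruits the ring to origins, was at -1.12 (adjusted p = 0.121). The remaining replication members overlapped between the groups. Gmnn, which encodes geminin, the inhibitor of a second round of loading, had 5.80 and 5.53 in macrophages, against 6.32 and 5.42 in CD8+ cDC and 6.49 and 5.90 in CD8- cDC, a difference of -0.37 (95% interval -1.18 to 0.45). Pcna, the sliding clamp of the DNA polymerases, had 8.78 and 8.15 in macrophages, against 9.17 and 7.85 in CD8+ cDC and 9.56 and 8.26 in CD8- cDC. Its replicate 1 was the higher array in each population, and the difference of -0.24 had an interval from -1.66 to 1.17.

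Among the 4 nucleotide supply genes, 1 was called lower in macrophages. Tyms, thymidylate synthase, had the largest difference of all members: 7.37 and 5.93 in macrophages, against 9.49 and 9.31 in CD8+ cDC and 9.82 and 9.48 in CD8- cDC. The macrophage arrays lay below all 4 cDC arrays, 7.35-fold lower in macrophages (-2.88, SE 0.42, adjusted p = 0.018), and the macrophage arrays differed from each other by 1.44. Tyms has a near copy, the pseudogene Tyms-ps, whose own probe read 7.51 and 6.31 in macrophages, against 8.66 and 8.87 in CD8+ cDC and 9.58 and 9.09 in CD8- cDC, so which transcript each probe reads is uncertain. A further Tyms probe, above background on 5 arrays, gave -1.98 (adjusted p = 0.0558), and the other 3 were at or near background.
Rrm1 and Rrm2, the large and small subunits of ribonucleotide reductase, were at -0.81 (adjusted p = 0.0753) and -1.19 (adjusted p = 0.167), and Rrm2 was called with the replicate block (adjusted p = 0.0304). Tk1, thymidine kinase of the salvage route, stood apart from the other members. It had 8.94 and 9.01 in macrophages, against 8.61 and 8.90 in CD8+ cDC and 9.37 and 8.98 in CD8- cDC, a difference of 0.01 whose 95% interval ran from -0.38 to 0.40. Its 3 other probes gave differences of 0.20, 0.52 and 1.15, and that at 0.52 was called (adjusted p = 0.0315) though above background on 1 array.

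Cyclins, Cdk1 and the regulators of S phase gave 3 calls among 8 measured genes, and many of their probes were dim. Cdk1, the kinase that drives entry into mitosis, had 7.11 and 5.94 in macrophages, against 8.51 and 8.40 in CD8+ cDC and 8.74 and 8.20 in CD8- cDC. It was 3.84-fold lower in macrophages (-1.94, SE 0.37, adjusted p = 0.0367). Foxm1, the factor for mitotic genes named above, had 5.56 and 5.28 in macrophages, against 5.99 and 6.16 in CD8+ cDC and 7.24 and 6.57 in CD8- cDC. The 3 populations did not overlap in it, and macrophages were 2.11-fold below the cDC mean (-1.07, SE 0.22, adjusted p = 0.0437).
Ccne2, a cyclin E that acts at the start of S phase, was above background on the 4 cDC arrays only: 4.91 and 4.42 in macrophages, against 5.41 and 5.31 in CD8+ cDC and 5.80 and 6.14 in CD8- cDC. Counting the macrophage arrays at the background level, it was at least 1.33-fold lower there (adjusted p = 0.0325). Such minimum folds count every dim array at the background level. Ccna2, cyclin A of S phase and early mitosis, was likewise above background on the cDC arrays alone, with 5.21 and 4.52 in macrophages, against 6.47 and 5.82 in CD8+ cDC and 7.2 and 6.18 in CD8- cDC. Its adjusted p was 0.0813, and 0.00759 with the replicate block, for a difference of at least 2.24-fold.
E2f1, a factor for replication genes, had 9.07 and 8.98 in macrophages, against 9.13 and 9.31 in CD8+ cDC and 9.84 and 9.37 in CD8- cDC. Its macrophage arrays were the lowest, but the difference of -0.39 was not called (adjusted p = 0.251). Ccne1 was above background on 3 arrays (-0.68, adjusted p = 0.262). The probes of Ccnb2, a cyclin B, and Chek1, the checkpoint kinase of stalled forks, were at background on every array and cannot show a difference.

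Mitotic kinases, their partners and the anaphase-promoting complex (APC/C) had the most negative median of the role groups, -1.69 over 9 genes, and 3 of the 9 were called lower in macrophages (Aurkb, Bub1b and Cdc20). With the replicate number as a block, 8 of the 9 were called lower, against 1502 of all 19057 genes. Aurkb, the kinase of the chromosomal passenger complex, had 7.41 and 6.52 in macrophages, against 8.54 and 8.30 in CD8+ cDC and 9.06 and 8.48 in CD8- cDC. It was 3.09-fold lower in macrophages (-1.63, SE 0.31, adjusted p = 0.0375).
Birc5 and Cdca8, which encode survivin and borealin of the same complex, differed more but with wider errors. Birc5 had 8.37 and 6.90 in macrophages, against 9.47 and 9.24 in CD8+ cDC and 10.44 and 9.71 in CD8- cDC (-2.08, SE 0.47, adjusted p = 0.0585, with the block 0.0216). Cdca8 had 8.77 and 7.24 in macrophages, against 9.69 and 9.71 in CD8+ cDC and 10.44 and 10.17 in CD8- cDC (-1.99, SE 0.44, adjusted p = 0.0552, with the block 0.0433). In both genes the macrophage arrays were further apart from each other than replicate 1 was from the CD8+ arrays, and neither gene overlapped with cDC. Each gene also had a further probe that was called lower, at -2.55 for Birc5 (adjusted p = 0.0398, while the other was at -2.22, adjusted p = 0.0656) and at -2.55 for Cdca8 (adjusted p = 0.01).
Bub1b, of the spindle checkpoint, had 8.14 and 7.19 in macrophages, against 8.90 and 9.11 in CD8+ cDC and 9.59 and 9.52 in CD8- cDC (-1.61, SE 0.28, adjusted p = 0.0287). Cdc20, which activates the APC/C once the checkpoint is met, had 7.98 and 7.10 in macrophages, against 9.33 and 9.24 in CD8+ cDC and 9.71 and 8.80 in CD8- cDC (-1.73, SE 0.36, adjusted p = 0.0472). Both genes were over 3-fold lower in macrophages.
Aurka, the kinase of the spindle poles, was at -1.75 (adjusted p = 0.0593, with the block 0.0353), and Plk1, the Polo kinase, was at -1.69 (adjusted p = 0.0646, with the block 0.035). Ube2c, the ubiquitin-conjugating enzyme of the APC/C, was at or under background on 1 macrophage array and was at least 2.05-fold lower in the mean. Its adjusted p was 0.221, or 0.0266 with the block, and its difference of -1.24 had a 95% interval from -2.48 to -0.01. The Bub1 probe was at background on all 6 arrays.

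Spindle motors, centromere and chromosome proteins gave 4 calls among 12 measured genes (Kif22, Kif11, Kif23 and Kif2c), with a median of -1.49. With the replicate block 7 were called lower, against 1502 of all 19057 genes. Kif22, a motor that sits on chromosome arms, had 7.90 and 7.01 in macrophages, against 8.91 and 9.14 in CD8+ cDC and 9.97 and 9.48 in CD8- cDC. The 3 populations did not overlap, and macrophages were 3.79-fold below the cDC mean (-1.92, SE 0.29, adjusted p = 0.021). Kif11, the motor that pushes the spindle poles apart, had 6.25 and 5.44 in macrophages, against 7.15 and 7.31 in CD8+ cDC and 8.11 and 7.74 in CD8- cDC (-1.74, SE 0.26, adjusted p = 0.0195), and its populations did not overlap either.
Kif23 and Kif2c were called at smaller differences with smaller errors. Kif23, a motor of the midzone and of cytokinesis, had 9.75 and 9.69 in macrophages, against 11.08 and 10.75 in CD8+ cDC and 10.90 and 10.65 in CD8- cDC (-1.13, SE 0.14, adjusted p = 0.0108). Kif2c, which takes microtubule ends apart at centromeres, had 6.15 and 6.36 in macrophages, against 6.91 and 7.21 in CD8+ cDC and 7.55 and 7.36 in CD8- cDC (-1.0, SE 0.13, adjusted p = 0.0136). The probes of Kif23 disagreed: a second was at -1.17 (adjusted p = 0.0116), and the others at -0.20 and 0.44, neither called. Of 15 members with over 1 probe above background on at least 2 arrays, Kif23 was the one whose probes did not all share a sign.
Top2a, the topoisomerase that untangles sister chromatids, had 8.37 and 6.87 in macrophages, against 9.33 and 9.38 in CD8+ cDC and 9.83 and 9.87 in CD8- cDC. The cDC replicates were within 0.06 of each other and the macrophage replicates 1.5 apart, and the difference of -1.98 was at adjusted p = 0.0507. Nusap1, a spindle microtubule protein, had 9.11 and 7.19 in macrophages, against 9.71 and 9.68 in CD8+ cDC and 10.65 and 9.99 in CD8- cDC (-1.86, adjusted p = 0.132), the widest macrophage pair of all members at 1.92.
The other 4 above-background genes of the group lay lower on both macrophage arrays without a call of the probe used. Tpx2, the activator of Aurora A on the spindle, was at -1.61 (adjusted p = 0.124, with the block 0.0181), and Kif4, a motor of chromosome arms and midzone, at -1.51 (adjusted p = 0.0623, with the block 0.0484). Of the further Kif4 probes above background on 5 arrays, 1 was called at -1.09 (adjusted p = 0.00574) and the other was at -0.89 (adjusted p = 0.153). Prc1, which bundles midzone microtubules, was at -1.48 (adjusted p = 0.0765), and Cenpa, the histone H3 variant of centromeres, at -1.03 (adjusted p = 0.212, with the block 0.015). The probes of Kif20a and Cenpe, a pair of mitotic motors, were at background on every array.

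**Figure D2:**
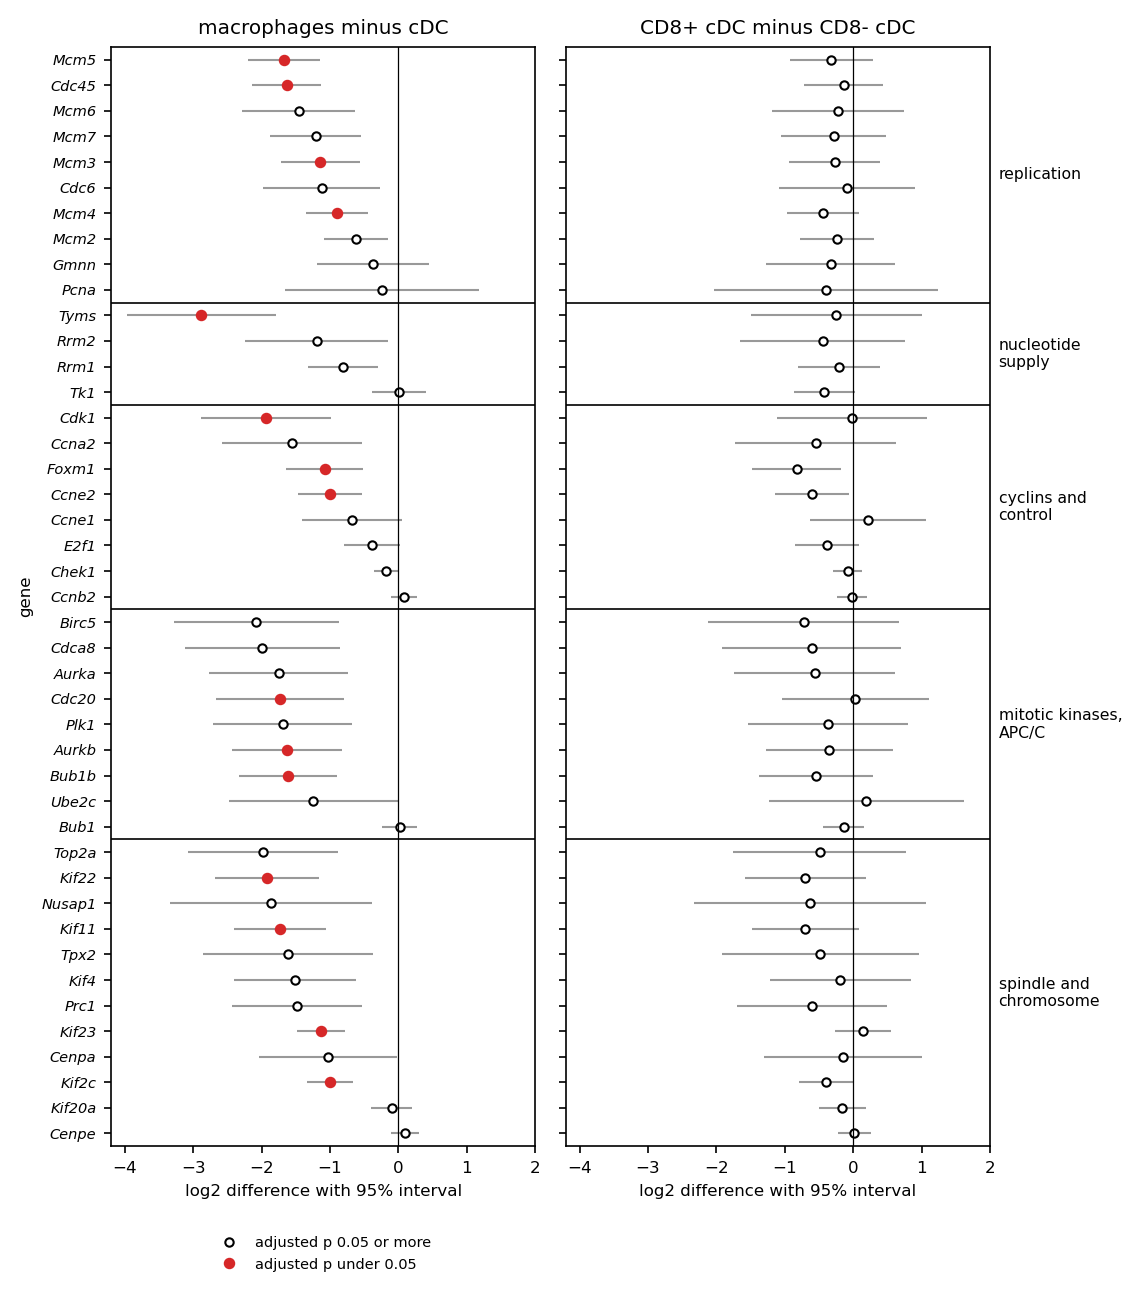
Log2 differences of the 43 genes with their 95% intervals, macrophages minus cDC (the mean of both groups) on the left and CD8+ minus CD8- cDC on the right, with filled points for an adjusted p under 0.05. On the left 15 genes are filled, all to the left of 0, led by Tyms at -2.88, and on the right 0 are filled and nearly all intervals cross 0.

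Set against each cDC population alone, macrophages gave fewer calls. Against CD8+ cDC, 5 of 43 members (11.6%) were called lower, against 5.25% of all genes: Tyms (-2.75), Cdc45 (-1.56), Mcm5 (-1.51), Kif23 (-1.20) and Kif2c (-0.81). Against CD8- cDC, 12 (27.9%) were called lower, against 5.93% of all genes: the same 5 and Kif22 (-2.27), Kif11 (-2.08), Bub1b (-1.89), Aurkb (-1.80), Foxm1 (-1.49), Ccne2 (-1.31) and Mcm4 (-1.12). The count called higher was 0 in either comparison, against 6.55% and 7.14% of all genes. In that direction 0 members reached an unadjusted p under 0.05, against 2514 and 2598 of all 19057 genes. The median was -1.18 against CD8+ cDC and -1.41 against CD8- cDC. With the replicate block the counts called lower were 11 and 23, against 1119 and 1215 of all 19057 genes. The 11 held 4 of the 5 named, with Kif2c at 0.0585, and the 23 held all 12. Both comparisons share the macrophage arrays. The share of all genes called without 1 array is not given here either, so the counts that follow do not set the members apart. Leaving out 1 array in turn moved the first count between 0 and 19, and the second between 0 and 20, in both cases highest without macrophage replicate 1 and 0 without replicate 1 of the cDC population compared. The first was 1 without CD8+ replicate 2, 2 without either CD8- array and 3 without macrophage replicate 2. The second was 4 without either CD8+ array and 2 without CD8- replicate 2.

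Between CD8+ and CD8- cDC, 0 of the 43 members were called in either direction, against 0.756% lower and 1.29% higher among all genes. At an unadjusted p under 0.05, 2 members were lower in CD8+ cDC and 0 higher, against 1368 and 1437 of all 19057 genes. With the replicate block the count of calls was again 0, against 139 lower and 240 higher among all genes. The values were lower in CD8+ cDC for 38 members, with a median of -0.33. For 20 members (46.5%) both CD8+ arrays lay below both CD8- arrays, against 21.4% of all genes and 26.0% of genes above background on at least 2 arrays. The 20 include Kif20a, Bub1 and Chek1, which were at background on all arrays. By the probes used, both CD8+ arrays lay above both CD8- arrays for 0 members, against 21.1% of all genes. Further probes of Kif23 and Cdc20, above background on all 6 arrays, did lie higher on both CD8+ arrays. Their differences were 0.58 (limma adjusted p = 0.263) and 0.32 (adjusted p = 0.975). The members' median was -0.12 without CD8- replicate 1 and -0.47 without CD8- replicate 2.
By the probes used, Foxm1 was the member furthest from 0, with 5.99 and 6.16 in CD8+ cDC, against 7.24 and 6.57 in CD8- cDC. Its difference of -0.83 had a 95% interval from -1.48 to -0.18 and an adjusted p of 0.29. Ccne2 was the other at an unadjusted p under 0.05, with 5.41 and 5.31 in CD8+ cDC, against 5.80 and 6.14 in CD8- cDC (-0.61, interval -1.15 to -0.07, adjusted p = 0.362). Further probes gave other sizes: -0.28 for Foxm1 (adjusted p = 0.557) and -0.91 for Mcm7 (adjusted p = 0.0644), further from 0 than any probe used.
Birc5 (-0.72, interval -2.12 to 0.67), Kif22 (-0.70, interval -1.58 to 0.18) and Kif11 (-0.70, interval -1.47 to 0.08) came next in size. The CD8+ arrays lay below the CD8- arrays in all 3, and none of the intervals excluded 0. In the replication group Mcm4 was at -0.44 and Cdc45 at -0.14, and in the nucleotide group Rrm2 was at -0.45 and Tyms at -0.25 (interval -1.5 to 1.0). Cdk1 had 8.51 and 8.40 in CD8+ cDC, against 8.74 and 8.20 in CD8- cDC, a difference of -0.02 with an interval from -1.12 to 1.08. With 2 arrays a population, these intervals allow more than a 2-fold difference either way for a gene such as Cdk1.

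The replicates of the populations were not equally close for these genes. In macrophages, replicate 1 exceeded replicate 2 for 36 of the 43 members, with a median difference of 0.69 and 14 members over 1 apart. In CD8+ cDC it was higher for 23, with a median of 0.03, and in CD8- cDC for 34, with a median of 0.37. Over 9664 genes above background on at least 2 arrays, the median was -0.05 in macrophages. It was -0.07 in CD8+ cDC, while CD8- cDC had -0.03. The members' own median level was 7.37 and 6.52 on the macrophage arrays, against 8.54 and 8.31 on the CD8+ arrays and 9.06 and 8.48 on the CD8- arrays.
Markers of other cells moved between the macrophage arrays too. The cDC markers were higher in macrophage replicate 1 for 11 of 12, with a median of 1.5. Their summed linear signal was 6264 and 2581 in macrophages, against 31050 to 36670 in cDC, with 11 of the 12 above background on both macrophage arrays and Flt3 below it. T and NK cell markers were higher in replicate 1 for 7 of 7 (median 2.14), summing to 1037 and 210.5 in macrophages and 255.9 to 729.5 in cDC, with Ncr1 and Cd247 at background on all 6 arrays. Neutrophil and monocyte markers were higher in replicate 1 for 8 of 8 (median 2.37), summing to 2499 and 354 in macrophages and 230.4 to 571.9 in cDC, with Mpo and Elane at background on all arrays. None of these 8 was called between macrophages and cDC by limma (1 at an unadjusted p under 0.05, in the lower direction), and with the replicate block S100a8 and S100a9 were called higher.
Erythroid markers were called higher in macrophages for 2 of 8, Epor and Klf1, and for 5 with the replicate block, which added Alas2, Slc4a1 and Rhag. They summed to 25790 and 20530 in macrophages and 8268 to 16000 in cDC, with Gata1 at background on all arrays. Plasmacytoid dendritic cell markers were called lower in macrophages for 2 of 7, and summed to 3072 and 2404 in macrophages and 3078 to 7714 in cDC, with Ccr9 at background throughout. B and plasma cell markers summed to 9124 and 8758 in macrophages and 5703 to 11190 in cDC. Of these 9, Prdm1 and Xbp1 were called higher in macrophages, though Prdm1, like Pax5, was at background on all arrays and Xbp1 was at adjusted p = 0.0519 with the replicate block. Macrophage markers summed to 148200 and 161500 in macrophages and 2532 to 12260 in cDC. In CD8+ cDC they were lower in replicate 1 for 13 of 14 and in CD8- cDC higher in replicate 1 for 13 of 14. The part of these cells in the values of the division genes was not tested.
Within the arrays numbered 1, the members' median difference between macrophages and cDC was -1.06, and within those numbered 2 it was -1.48. This split by number was chosen after the data were seen and has no test.

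**Figure D3:**
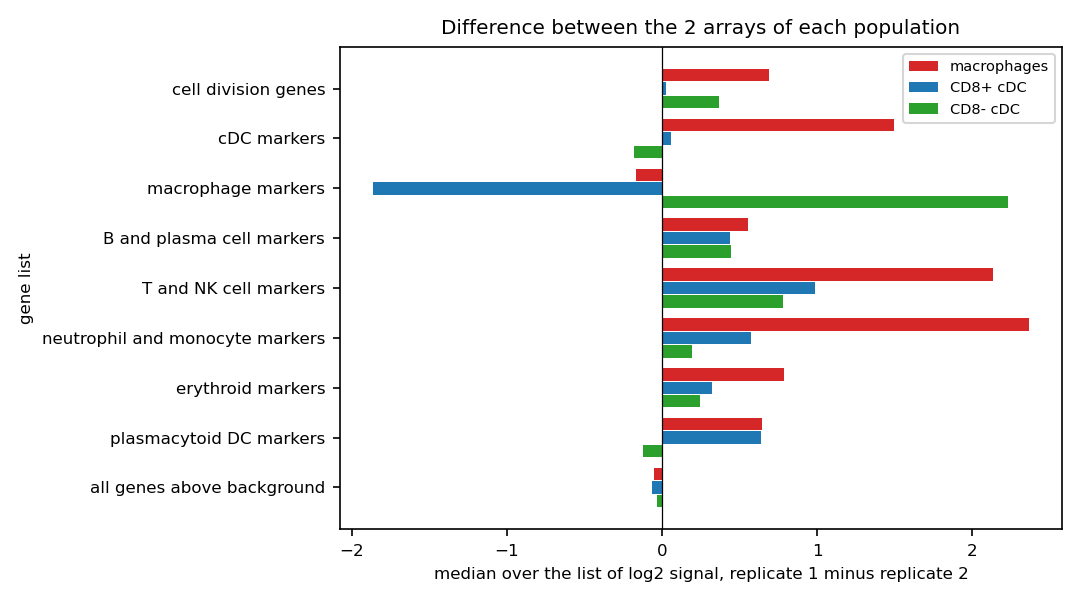
Bars give the median over each gene list of the log2 signal of replicate 1 minus that of replicate 2, in macrophages, CD8+ cDC and CD8- cDC. In macrophages the cell division genes (0.69) and the markers of cDC (1.5), T and NK cells (2.14) and neutrophils and monocytes (2.37) were higher in replicate 1, while all genes above background had a median of -0.05.

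Further genes of the cell cycle were read from 5 lists chosen with earlier results of these data known. Of 21 other replication genes with a named probe, 9 were called lower in macrophages than in cDC and 0 higher (14 lower and 0 higher at an unadjusted p under 0.05), with a median of -0.82. The share called lower was 42.9% in this list, 16.1% of the other mitosis genes, 55.6% of the G1 cyclins and kinases, 38.5% of the brakes and 8.33% of the E2F list, against 7.21% of all genes and 14.1% of genes above background on at least 2 arrays. Mcm10, which helps to start the fork, had 6.80 and 6.51 in macrophages, against 8.51 and 8.96 in CD8+ cDC and 9.15 and 8.74 in CD8- cDC (-2.19, adjusted p = 0.0056). Dut, which removes dUTP, was not above background in macrophages and was at least 3.5-fold lower there (adjusted p = 0.0135). Pole and Pold1, catalytic subunits of the leading and lagging strand polymerases, were at -1.28 and -1.14 (adjusted p = 0.0192 and 0.0249).
Of 31 other mitosis genes, 5 were called lower and 0 higher (17 lower and 1 higher at an unadjusted p under 0.05), with a median of -0.92, and 11 were called lower with the replicate block. Espl1, the separase that cuts cohesin, had 5.90 and 5.82 in macrophages, against 6.62 and 7.88 in CD8+ cDC and 8.75 and 8.81 in CD8- cDC (-2.15, adjusted p = 0.0261). Kif15, a spindle motor, was at -1.97 (adjusted p = 0.00521), and Ncapd2, of the condensin complex, at -1.42 (adjusted p = 0.00659). Ckap2 was not above background in macrophages and was at least 2.09-fold lower (adjusted p = 0.0221). Incenp, which holds the chromosomal passenger complex of Aurkb, Birc5 and Cdca8 together, had 8.89 and 9.53 in macrophages, against 8.13 and 8.18 in CD8+ cDC and 8.58 and 8.45 in CD8- cDC. Its value of 0.87 ran against its partners and was not called (adjusted p = 0.0569).

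Genes that act before S phase did not all move one way. Of 9 G1 cyclins and kinases, 5 were called lower in macrophages and 1 higher, with a median of -0.98, and Ccnd3 lost its call with the replicate block (adjusted p = 0.0434, with the block 0.0676). Ccnd2, cyclin D2, was the one higher: 9.62 and 8.85 in macrophages, against 6.44 and 6.36 in CD8+ cDC and 7.62 and 7.75 in CD8- cDC (2.19, adjusted p = 0.00748). Ccnd1, cyclin D1, had 11.59 and 11.50 in macrophages, against 12.40 and 12.92 in CD8+ cDC and 13.71 and 13.95 in CD8- cDC (-1.70, adjusted p = 0.00714). Cdk4, the kinase that the D cyclins activate, was at -1.18 (adjusted p = 0.0212), and Cdc25a, a phosphatase that activates cyclin-dependent kinases, at -1.25 (adjusted p = 0.0137). Mycl, a Myc family factor that is also among the cDC markers, was at -3.55 (adjusted p = 0.0148).
Of 13 brakes on division, 5 were called lower in macrophages and 0 higher (8 lower and 0 higher at an unadjusted p under 0.05), with a median of -0.80. With the replicate block Cdkn1c was no longer called (0.0573) and Cdkn2b was (0.0129). Cdkn1a, the inhibitor p21, had 6.31 and 6.12 in macrophages, against 8.96 and 9.23 in CD8+ cDC and 7.08 and 7.92 in CD8- cDC (-2.08, adjusted p = 0.0117). Cdkn2c and Cdkn2d, inhibitors of Cdk4 and Cdk6, were at -1.11 and -0.95 (adjusted p = 0.028 and 0.0303), and Rbl1, a relative of the retinoblastoma protein, at -0.75 (adjusted p = 0.021).
Of 12 E2F family members and partners, 1 was called lower, Mybl2 of the MuvB complex for mitotic genes (-1.12, adjusted p = 0.0202). The pair called higher were Tfdp2, a dimer partner of E2F (0.94, adjusted p = 0.0244), and E2f6, a repressive E2F (0.46, adjusted p = 0.0222), and the median was -0.10. Between CD8+ and CD8- cDC, 0 genes of these 5 lists were called by limma. At an unadjusted p under 0.05, CD8+ cDC were lower in 4 other replication genes, 4 other mitosis genes, 3 G1 genes, 4 brakes and 1 of the E2F list, and higher in 2 G1 genes, 2 brakes and 2 of the E2F list. With the replicate block 1 was: Cdkn2b, an inhibitor of Cdk4, with 6.71 and 7.28 in CD8+ cDC, against 8.55 and 8.81 in CD8- cDC (-1.68, adjusted p = 0.06, with the block 0.0295). E2f2 was at -2.13 (adjusted p = 0.177).

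**Figure D4:**
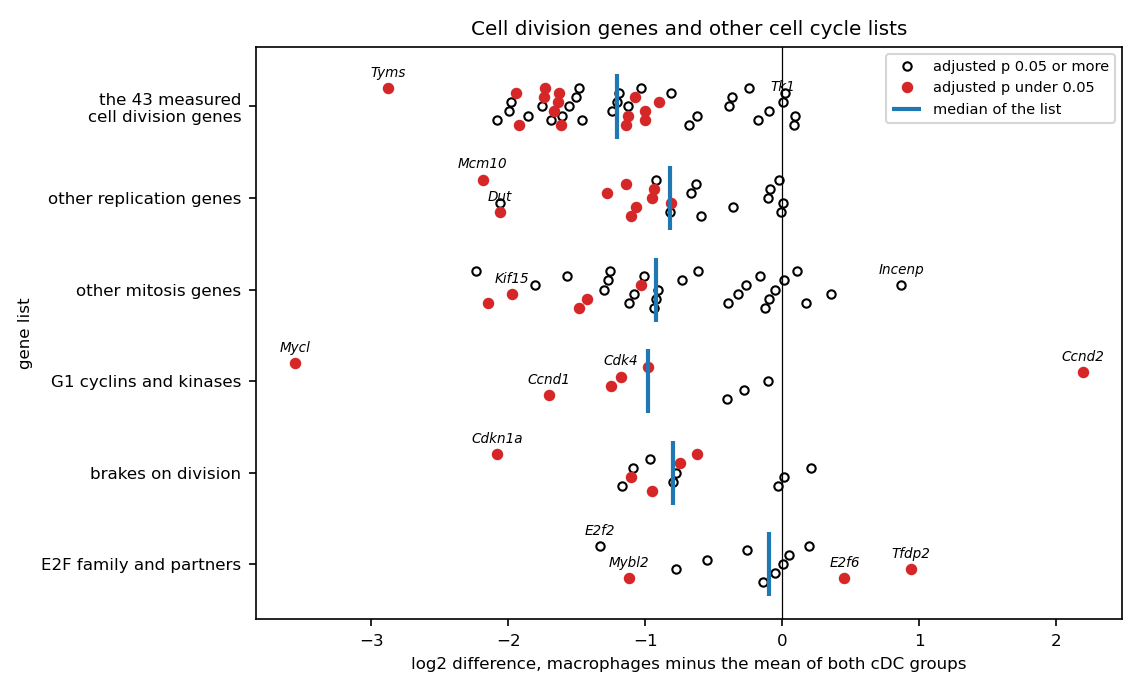
Each point is the log2 difference of a gene, macrophages minus cDC (the mean of both groups), with the genes in rows by list and filled points for an adjusted p under 0.05. The vertical bars mark the medians, from -1.21 for the 43 cell division genes to -0.10 for the E2F family and partners, and the filled points right of 0 are Ccnd2, Tfdp2 and E2f6.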

How the data were processed

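RNA from macrophages, CD8+ cDC and CD8- cDC of mouse spleen was measured on Illumina bead arrays, 2 per population. The values the authors deposited were not normalized again. They were read as log2, a base inferred from their range: the deposited table ran from 4.25 to 14.53 on each array, with array medians of 4.71 to 4.72. It was therefore taken to have been normalized between arrays by the authors, a step no label records. Their centring and background treatment stay unknown. BeadStudio and limma are named, without roles, per the submitters' processing notes. Another table's 12 columns, whose names match no label, were not used, nor was any detection p.

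The platform annotation gave 34885 probes a single gene symbol, 18 more than 1, and 10378 none. The gene IDs of 34807 were in the GRCm38.p6 gene table, which changed 0 symbols. For the 9172 genes with over 1 probe, that with the highest mean over the 6 arrays was used. The background level was 5.25 log2, the 99th percentile over 1595 probes of genes taken as silent in these cells (keratin-associated proteins and the taste, vomeronasal and olfactory receptors), and it filtered no test. The members, lists, motifs and the level were chosen with earlier results of these data known. The genes dwelt on were the members called, those with the 3 largest or smallest differences in a group, and up to 4 called genes of each other list. The other members are given by their values, and Incenp and Cdk4 were picked after their values were seen.

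All 6 arrays were fitted with limma 3.58.1 in R 4.3.3 (lmFit and eBayes, 1 coefficient per population, 3 residual degrees of freedom, a prior of 1.86), over 45281 probes, and p-values were adjusted by Benjamini and Hochberg over all of them. Every adjusted p is limma's and two-sided, and intervals are 95%. The script was tested on simulated data, where 45% of 100 probes lowered by 1 log2 in macrophages and 76% of 100 lowered by 2 were called. False calls numbered 4, with 45281 probes simulated. A true difference of these sizes can therefore go uncalled. Each simulated probe took the spread of a probe drawn from the whole table. For macrophages against cDC the median SE was 0.133 over all genes and 0.295 over the members. The simulated shares therefore do not give the recovery for the members. Replicate deviations correlated at 0.387 between macrophages and CD8+ cDC, 0.219 between macrophages and CD8- cDC and 0.256 between CD8+ and CD8- cDC, so the numbers may pair the arrays, though the labels do not say what they share. The fit with the replicate block is given beside the counts of members and lists that it changes, and for each member whose call against cDC as a whole it changes. Sums of marker signals are of 2 to the power of the log2 value. The number of arrays limits the precision.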

Additional observations from a re-analysis of the deposited data

How the results depend on the processing

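Of the 15 members called lower in macrophages than in cDC, the count became 31 with an intensity trend in eBayes, 30 among the 38 members whose probes were above background on at least 2 arrays, and 24 with the replicate block. Leaving out 1 array in turn gave 4 to 21, and medians of -1.66 to -0.92. Against CD8+ cDC the count of 5 became 19 with the trend, 20 after the dim filter, 9 with the mean of all probes, 8 with the highest-variance probe and 11 with the replicate block. Leaving out 1 array gave 0 to 19, and medians of -1.62 to -0.81. Against CD8- cDC the count of 12 became 28 with the trend, 29 after the dim filter and 23 with the replicate block, and leaving out 1 array gave 0 to 20, with medians of -1.77 to -1.09. The dim filter tests fewer probes. Apart from the replicate block, the share of all genes called under these settings is not given here. Larger counts alone therefore do not set the members apart from all genes. With the replicate block, 1502 of all 19057 genes were called lower in macrophages than in cDC, against 1374 without it. The cause of the changes was not tested under any setting, the dim filter included. Other settings (array weights, centring, cyclic loess, the mean of probes or the highest-variance probe elsewhere) kept the counts within 1.5 times. The counts of members called higher, and both counts between CD8+ and CD8- cDC, were 0 under each setting, and the median of that comparison ran from -0.47 to -0.12. Centring and cyclic loess moved the median of all genes by at most 0.05.

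Of the single genes compared between macrophages and cDC under other settings, 263 values kept their direction and side of the threshold, 39 passed it anew, 68 no longer passed it and 6 changed sign. The last were Bub1 (0.02, from -0.088 to 0.13 leaving out 1 array: -0.011 without CD8+ replicate 1, -0.001 without CD8- replicate 1 and -0.088 without macrophage replicate 2) and Tk1 (0.01, from -0.088 to 0.104: -0.065 without CD8+ replicate 1, -0.088 without CD8- replicate 2 and -0.03 without macrophage replicate 2). Between CD8+ and CD8- cDC, 239 kept both and 11 changed sign, none called. Cdk1 (-0.02) became 0.001 under cyclic loess and ran from -0.29 to 0.25 when 1 array was left out, with 0.035 without CD8+ replicate 2. Tk1 (-0.42) became 0.038 with the highest-variance probe. Leaving out 1 array gave ranges of -0.068 to 0.035 for Ccnb2, -0.036 to 0.072 for Cenpe, with -0.019 without CD8- replicate 2, -0.77 to 0.12 for Gmnn, -1.06 to 0.26 for Pcna, with 0.25 without CD8- replicate 1, and -0.97 to 0.074 for Rrm2. Beyond the results that speak of it, the replicate block changed no call among the members compared with cDC as a whole.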

Other observations

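Genes outside the lists whose levels followed the members most closely were looked for among 3309 genes with a mean above background and an SD over the arrays of at least 0.5. The measure was Pearson's r with the mean of the 34 members above background on all 6 arrays, over 6 arrays in 3 populations, so it mostly reads the difference between macrophages and cDC and is given as a description. The 10 highest were Sgo1 (0.9965), Set, Tyms-ps, Adgra2, Oxa1l, Cox7a2l, Kifc1, Smim3, Bhlhb9 and Nasp (0.9913). Sgo1, which protects cohesin at centromeres, had 5.65 and 4.6 in macrophages, against 6.39 and 6.36 in CD8+ cDC and 7.05 and 6.70 in CD8- cDC. Nasp, a histone chaperone, had 7.96 and 7.27 in macrophages, against 8.73 and 8.46 in CD8+ cDC and 9.14 and 8.91 in CD8- cDC. Kifc1, a minus-end spindle motor, had 6.86 and 6.25 in macrophages, against 7.56 and 7.71 in CD8+ cDC and 8.24 and 7.85 in CD8- cDC. Others are no known division genes, such as Cox7a2l, of the respiratory chain, with 11.40 and 10.56 in macrophages, against 12.27 and 12.13 in CD8+ cDC and 12.55 and 12.38 in CD8- cDC.

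Among the 34 members themselves, each gene's r with the mean of the others had a median of 0.969 and was over 0.9 for 26. This r likewise mostly reads the difference between macrophages and cDC, and the share of other genes over 0.9 is not given. Aurkb was the closest at 0.997. Tk1 (0.181), Pcna (0.438) and Gmnn (0.629) were the least like the rest.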
